A study of Mus musculus with 12 samples.

Results

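DNA methylation of the 3 mouse immunoglobulin loci was followed in B cells sorted by the number of divisions completed after an in vivo LPS challenge. The loci were taken as 3 windows of the mm9 genome, chr12:114400000-117300000 for the heavy chain, chr6:67500000-70700000 for the kappa light chain and chr16:19000000-19300000 for the lambda light chain. Their members are the CpGs with at least 5 reads in every library, which were 1152 of the 1236018 CpGs that met this minimum in the whole table. The heavy chain window gave 425 of its 669 listed CpGs, the kappa window 646 of 912 and the lambda window 81 of 111. Splenic B cells sorted as B220+ CD43- from naive C57/BL6J donors were dyed with CFSE or CTV, which dilute at each division, and injected into 2 uMT hosts, numbered 196 and 197. uMT mice carry a disrupted membrane exon of the mu heavy chain gene and have no mature B cells, but keep T cells, myeloid cells and other cells that lack rearranged immunoglobulin genes. After an overnight rest all hosts received LPS, and spleen cells were sorted 3 days later, so that every fraction, the undivided one included, had been transferred and exposed to LPS. The fractions were Div0 (undivided), Div1, Div3 and Div5 (1, 3 and 5 divisions), Div8neg (at least 8 divisions, CD138-) and Div8pos (at least 8 divisions, CD138+), each with 1 library per host, hence 2 per fraction and 12 in all. CD138, or syndecan-1, marks plasmablasts and plasma cells. The labels give the sex as female, the age as 8 weeks and the strain as B6.SJL-Ptprca Pepcb/BoyJ without saying whether this strain is that of donors or hosts.

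The heavy chain and kappa loci each hold a long array of variable (V) segments followed by short joining (J) segments and constant regions. Diversity (D) segments lie in the heavy chain locus as well, and the lambda locus of the mouse holds few segments. In developing B cells the RAG recombinase joins 1 V segment to a J or DJ segment, which removes or inverts the DNA between them, so mature B cells differ in their arrangement. After activation, class switching can delete further DNA between heavy chain constant genes. Enhancers downstream of the constant regions of the kappa and heavy chain loci are known to drive their transcription, which reaches very high levels in plasma cells. A methylation level here is therefore an average over those alleles that still carry a given CpG.

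The deposited annotation named few genes in the windows, since it lists no single immunoglobulin segments. Of the heavy chain CpGs, 85 had a gene symbol, that of Tedc1 (listed as 4930427A07Rik), Tmem121 or Zfp386, all at the borders of the locus; 5 lambda CpGs had the symbol of the olfactory receptor gene Olfr164, and no kappa CpG had one. In the kappa window 436 CpGs were classed as intronic and 210 as intergenic, and all 81 lambda CpGs were intergenic. Stretches were therefore named by the genes that bound them, with Adam6b and Adam6a (sperm-expressed disintegrin genes embedded in the heavy chain locus) separating the constant, J and D side from the V segments, and Rprl1 dividing the kappa V array. Promoter sequences of 2 of these landmark genes, from RefSeq (GRCm38.p6, both on the + strand, with CG in capitals), show the contrast between a CpG-rich gene start and a CpG-free one. Zfp386, a zinc finger gene beyond the V segments, lies at chr12:116047474-116047773 and holds 17 CG. The Adam6b promoter at chr12:113489315-113489614 holds 0 CG.
Zfp386: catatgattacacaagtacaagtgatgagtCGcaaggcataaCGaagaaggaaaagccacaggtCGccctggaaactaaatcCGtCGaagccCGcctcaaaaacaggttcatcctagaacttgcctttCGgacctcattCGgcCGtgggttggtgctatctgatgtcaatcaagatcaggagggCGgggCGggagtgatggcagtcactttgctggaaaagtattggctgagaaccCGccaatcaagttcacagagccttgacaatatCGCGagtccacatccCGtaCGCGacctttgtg
Adam6b: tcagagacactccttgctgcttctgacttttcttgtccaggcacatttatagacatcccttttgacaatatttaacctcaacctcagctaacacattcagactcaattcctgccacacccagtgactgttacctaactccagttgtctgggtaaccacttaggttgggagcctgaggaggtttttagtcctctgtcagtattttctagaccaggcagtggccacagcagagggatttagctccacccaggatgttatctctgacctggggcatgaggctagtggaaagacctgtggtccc
Of the 32851 promoters of that length in the RefSeq table, 31.4% hold at least as many CG as Zfp386.

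In undivided cells the loci were almost fully methylated. The median CpG stood at 96.1% in the heavy chain window, 96.5% in kappa and 96.4% in lambda, and 1024 of the 1152 CpGs averaged 80% or more. Another 96 CpGs were between 20% and 80%, and 32 were under 20%. The low CpGs were 28 in the heavy chain window, 4 in kappa and 0 in lambda. The CpG-rich start of Zfp386 held 10 of them, at chr12:117286024-117286144 (mm9). Those 10 were between 0 and 5.83% in Div8pos and between 0 and 9.66% in Div0. Tedc1 and Tmem121, ordinary genes beyond the constant regions, held 7, the gap between Tmem121 and the first constant transcript held 2, and the V segments held 9. The 7 low V CpGs at chr12:115617140-115617312 averaged 5.59%, 2.67%, 5.46%, 12.4%, 1.67% and 5.56% in Div0, Div1, Div3, Div5, Div8neg and Div8pos, and the highest single value was 29.2% in Div5, at 115617140.

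Methylation of the loci was nearly level through Div5 and lower in both fractions with at least 8 divisions. The heavy chain mean was 87.4%, 87.2%, 86.9%, 86.0%, 82.3% and 77.8% in Div0, Div1, Div3, Div5, Div8neg and Div8pos. The kappa mean in the same order was 91.8%, 91.9%, 91.2%, 90.8%, 87.2% and 83.0%. Lambda, which holds few segments in the mouse, stood at 94.0%, 94.5%, 94.4%, 93.9%, 89.99% and 89.64%. Within a host, Div8pos minus Div0 was -9.56 ± 0.661 percentage points for the heavy chain, -8.77 ± 0.192 for kappa and -4.40 ± 1.44 for lambda (SD, n = 2 hosts). In all 3 loci the Div8pos and Div8neg libraries of both hosts lay below those of Div0. The slope over the 6 ordered fractions was -1.81 points per step for the heavy chain (exact permutation within hosts, two-sided, adjusted over the 3 loci, p = 1.2e-05), -1.67 for kappa (adjusted p = 2.3e-05) and -1.03 for lambda (adjusted p = 0.0036).

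The DNA around the loci and the rest of the table fell too. The 1 Mb on each side of each window changed by -6.52 ± 0.207 points around the heavy chain, -6.26 ± 0.087 around kappa and -4.89 ± 0.119 around lambda between Div8pos and Div0, and all CpGs outside the loci by -6.88 ± 0.233 (SD, n = 2 hosts). These flanks held many unmethylated CpGs, with means of 50.6%, 49.3% and 42.9% in Div0. Over all CpGs the slope was steeper in the heavy chain locus than in its flanks, with a difference of -0.627 points per step (exact permutation adjusted p = 0.00081) and likewise in kappa, at -0.53 (adjusted p = 0.00096), but among CpGs at 80% or more in Div1 the sign was the opposite, at 0.0463 for the heavy chain (adjusted p = 0.5) and 0.415 for kappa (adjusted p = 0.00034). For lambda the difference was -0.155 over all CpGs (exact permutation adjusted p = 0.47) and 0.804 among the CpGs high in Div1 (adjusted p = 0.013). This restriction to CpGs high in Div1 was chosen after seeing the data.

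Among those initially high CpGs the kappa and lambda loci kept more methylation than their neighbourhoods. Kappa changed by -8.22 ± 0.219 points over 576 CpGs, its flanks by -10.78 ± 0.144 over 456. Lambda changed by -4.08 ± 1.17 points over 78 CpGs and its flanks by -9.65 ± 0.26 over 621. The heavy chain changed by -9.82 ± 0.34 points over 365 CpGs and its flanks by -10.29 ± 0.628 over 1002 (SD, n = 2 throughout). In hosts 196 and 197 this locus changed by -9.58 and -10.06 points and its flanks by -9.85 and -10.74. The locus thus fell slightly less in both hosts, while its difference in slope from the flanks did not pass, as given above. All other CpGs of the table in this range changed by -10 ± 0.383.

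**Figure D1:**
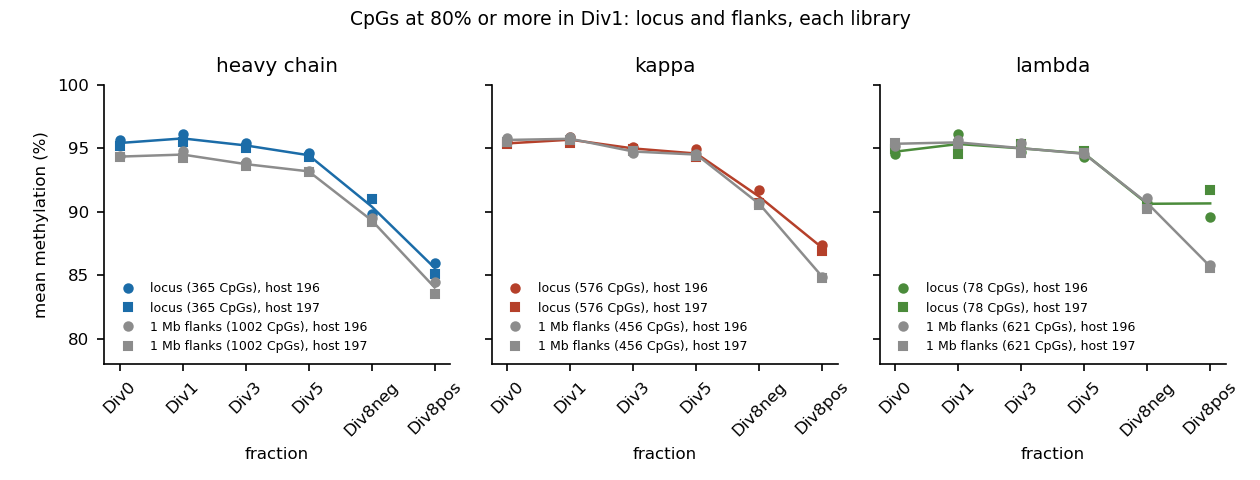
Mean percent methylation (y axis) of CpGs at 80% or more in Div1, by fraction (x axis), for each locus and the 1 Mb on each side, with 1 point per library and lines through the means of the 2 hosts. All series stay near 95% through Div5. In Div8pos the lambda CpGs average 90.7% and their flanks 85.7%, while the heavy chain CpGs average 85.6% and their flanks 84.0%.

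Single CpGs were tested with a quasi-binomial model of methylated and unmethylated reads over the whole table, and a CpG was called at an adjusted p (Benjamini-Hochberg) under 0.05 together with group means at least 20 points apart. Between Div8pos and Div0, 97 of the 1152 CpGs (8.42%) were lower, against 7.16% of all CpGs tested, a share near the background. By locus, 40 of 425 heavy chain CpGs, 56 of 646 kappa CpGs and 1 of 81 lambda CpGs were lower. The shares of 8.42% and 7.16% have unlike baselines, since 2.78% of the loci's CpGs but 34.5% of the whole table stood under 20% in Div0. Among CpGs at 80% or more in Div1, 75 of 1019 in the loci (7.36%) were lower, against 9.89% in the rest of the table. That restriction was chosen after seeing the data. No CpG of the loci was higher, against 0.0273% of all CpGs tested; at an unadjusted p under 0.05 there were 5 higher and 393 lower, and limma on percent methylation called 1 higher. Those unadjusted counts are 34.5% of the loci's CpGs, against 28.5% of all CpGs tested. The difference was negative at 970 of the 1152 CpGs, with a median of -6.56 points. The 97 called CpGs differed by between -83.6 and -20.3 points with a median of -28.9, and 96 of them moved the same way in both hosts. Before division 83 of the 97 stood at 80% or more, and 11 were under 20% in Div8pos. The count of 97 was 20 with the Div0 library of host 197 left out and 43 with the Div8pos library of host 197 left out. Within the loci the called share was 21.4% in the constant, J and D stretch of the heavy chain, 8.59% in its V segments, 8.14% and 6.97% in the kappa V segments before and after Rprl1, and 7 of 7 CpGs at the downstream end of kappa.

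**Figure D2:**
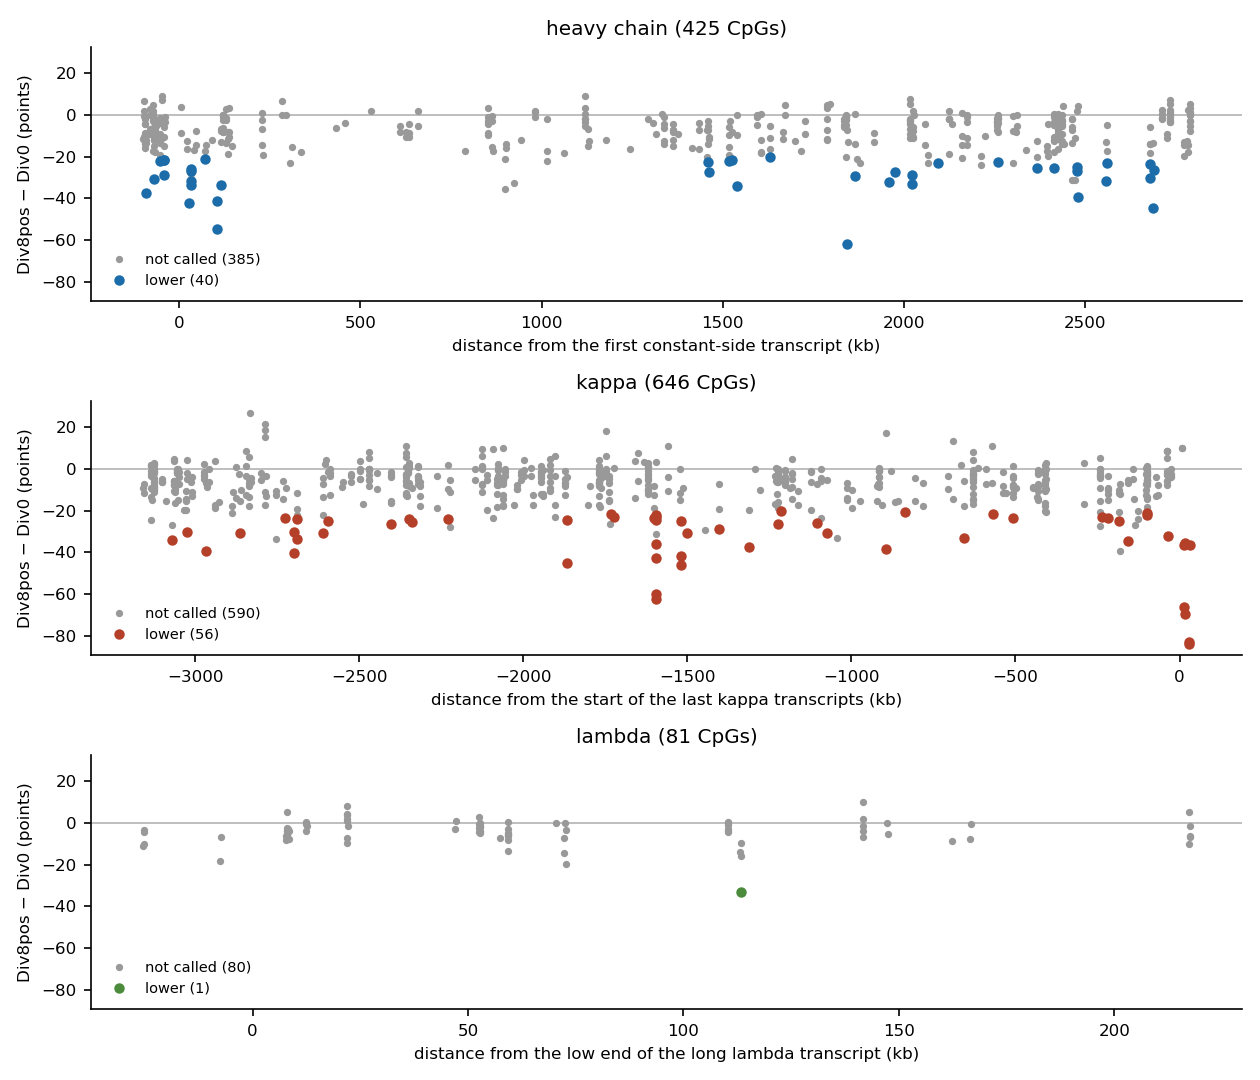
Difference in percent methylation between Div8pos and Div0 (y axis, percentage points) at each CpG along the 3 loci (x axis, distance in kb from a transcript of the locus), with called CpGs marked. Most CpGs lie a few points below 0, and the 7 at the downstream end of kappa lie between -83.6 and -35.3.

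Of the named stretches, the downstream end of the kappa locus showed the largest losses. Its 7 CpGs lie 3′ of the shorter of 2 unnamed transcripts, which begin at chr6:70668896 in the J and C part of the locus and end at 70676748 and 70690549. The first 4 of these CpGs are inside the longer transcript and the other 3 beyond it, before the ribose phosphate isomerase gene Rpia. The region known to contain the 3′ kappa enhancers lies downstream of the constant gene; the deposited annotation does not mark enhancers. The mean over the 7 CpGs was 73.9%, 74.8%, 62.5%, 51.1%, 51.7% and 15.3% in Div0, Div1, Div3, Div5, Div8neg and Div8pos. Div8pos minus Div0 was -58.6 ± 3.67 points (SD, n = 2 hosts).

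The 2 CpGs that fell most are 21620 and 21743 bp beyond the shorter transcript's end. At chr6:70698491 the level was 6.7% and 16.1% in the Div8pos libraries of hosts 196 and 197, 75.0% and 63.6% in Div8neg, and 93.8% and 96.1% in Div0. The 2 Div8pos libraries lay below every other library, and the difference between Div8pos and Div0 was -83.6 points (quasi-binomial adjusted p = 4.46e-19). At chr6:70698368 the level was 0 and 15.2% in Div8pos, 80% and 73.1% in Div8neg, and 88.9% and 91.7% in Div0, a difference of -82.7 points between Div8pos and Div0 (quasi-binomial adjusted p = 5.01e-14). Both CpGs were also lower in Div8pos than in Div8neg, with differences of -58.0 points (quasi-binomial adjusted p = 0.00114) and -68.9 points (adjusted p = 6.42e-06). Their Div5 levels, 80% and 80.4% at the first and 63.6% and 69.2% at the second, lay below every Div0 library. The difference between Div5 and Div0 did not pass at either (quasi-binomial adjusted p = 0.698 and 0.664).

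The CpG at chr6:70681944, 5196 bp past the shorter transcript, was at 20.0% and 16.0% in Div8pos and 85.7% and 82.9% in Div0 (-66.3 points, quasi-binomial adjusted p = 1.24e-06). It stood between them, at 54.5% and 55.6%, in Div8neg. The CpG at chr6:70685360 was at 7.1% and 5.2% in Div8pos and 88.9% and 62.5% in Div0 (-69.5 points, quasi-binomial adjusted p = 4.73e-09). Its Div3 libraries were at 36.4% and 40.7%, but Div3 against Div0 did not pass at this CpG (quasi-binomial adjusted p = 0.824). In Div8neg the hosts parted there, at 0 of 7 reads in host 196 and 56.0% of 25 reads in host 197. Its call between Div8pos and Div8neg (-21.8 points, quasi-binomial adjusted p = 0.00887) was absent with limma on percent methylation (adjusted p = 0.591).

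The other 3 CpGs of this stretch changed by -36.5, -35.3 and -36.4 points between Div8pos and Div0. The one at chr6:70685248 was at 0 and 2.1% in Div8pos and 28.6% and 44.1% in Div0, and the one at chr6:70699787 at 0 and 2.6% in Div8pos and 36.4% and 39.0% in Div0. The CpG nearest to the transcript, at chr6:70681698, kept 60% and 63.6% in Div8pos against 100% and 96.7% in Div0. All 7 were called lower between Div8pos and Div0, with quasi-binomial adjusted p between 4.46e-19 and 0.000505, and the quasi-binomial model called none between Div8neg and Div0. In that comparison limma on percent methylation called 1, at chr6:70681944 (-29.2 points, limma adjusted p = 0.0475). The 7 CpGs had between 5 and 58 reads in a library, and 1 of the 7 had at least 10 in every library. Without Div0 of host 197, 4 of the 7 calls were left, and without Div8pos of host 197, 6 were left; limma and the host block each called 7, and a dispersion estimated from each CpG alone called 0.

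Beyond this stretch, the 105 CpGs in the 100 kb after the window's end had a median of 2.04% in Div8pos and 1.92% in Div0. Most of them were therefore too low in Div0 to fall by the 20 points a call needs. Of the 105, 1 was called lower, against 7.16% of all CpGs tested. It lies at chr6:70713020 near Rpia, with 53.0 ± 4.24% in Div8pos and 96.4 ± 5.05% in Div0 (SD, n = 2). On the other side, the 2 CpGs inside the J and C transcript averaged 100% in Div8pos and 90% in Div0, within the spread between hosts.

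**Figure D3:**
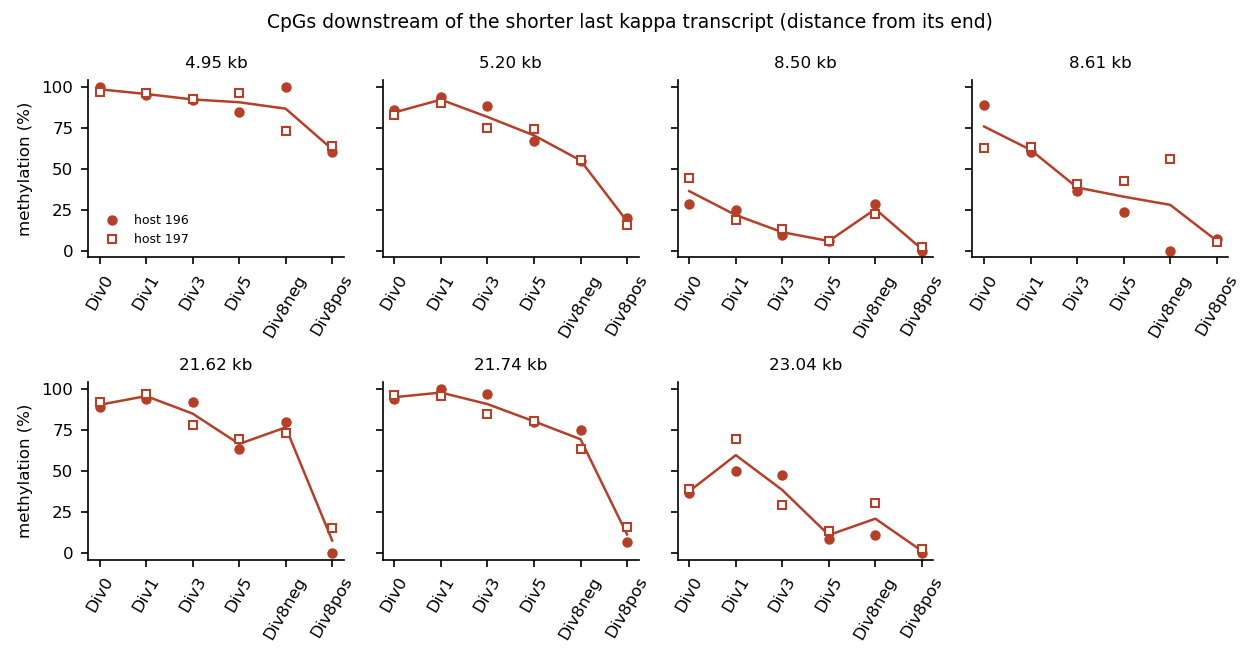
Percent methylation (y axis) of the 7 CpGs at the downstream end of the kappa locus by fraction (x axis), with 1 point per library and lines through the means of the 2 hosts; each CpG is named by its distance from the end of the shorter transcript. The 5 CpGs at 75% or more in Div0 are at 61.8% or less in Div8pos, and the 2 at 36.3% and 37.7% in Div0 are at 1.06% and 1.32% in Div8pos.

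In the kappa V array, 1 cluster of 10 CpGs at chr6:69074656-69074968, inside an annotated intron before Rprl1, held 2 CpGs that were already lower in Div5 than in Div0. Its mean was 77.3%, 74.7%, 65.5%, 59.5%, 60.6% and 44.98% in Div0, Div1, Div3, Div5, Div8neg and Div8pos, and 7 of its CpGs were called lower between Div8pos and Div0. The CpG at 69074856 was at 47.6% and 21.6% in Div8pos, 57.7% and 51.9% in Div8neg, 62.5% and 56.7% in Div5, and 96.4% and 97.4% in Div0. It was lower than in Div0 in Div5 (-37.3 points, quasi-binomial adjusted p = 2.82e-07), in Div8neg (-42.1 points, adjusted p = 1.28e-08) and in Div8pos (-62.3 points, adjusted p = 1.09e-15). Its neighbour at 69074886, with 41.7% and 38.0% in Div5 and 78.6% and 81.6% in Div0, was lower in Div5 too (-40.3 points, quasi-binomial adjusted p = 0.00669). They had between 16 and 101 reads and between 12 and 82 reads in a library. The largest fall of any cluster with at least 3 CpGs was at chr6:69149905-69150071, where 3 CpGs averaged 45.5 ± 2.24% in Div8pos, 52.6 ± 15.9% in Div8neg and 83.1 ± 2.64% in Div0 (SD, n = 2). In contrast, the cluster with the most CpGs, 16 of them beginning at chr6:70038121, differed by -5.47 points.

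The V segments on both sides of Rprl1 had similar means. The 393 CpGs before Rprl1 averaged 83.7% in Div8pos and 91.9% in Div0, and the 244 after it 83.6% in Div8pos and 92.1% in Div0. Over the 75 kappa clusters of at least 3 CpGs with neighbours within 500 bp, 71 had a negative difference, 17 were at least 10 points lower, and the median was -6.53 points.

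In the heavy chain locus the constant, J and D stretch fell most. Its 42 CpGs averaged 92.5%, 92.8%, 92.4%, 88.9%, 82.9% and 78.4% in Div0, Div1, Div3, Div5, Div8neg and Div8pos, and Div8pos minus Div0 was -14.14 ± 1.10 points (SD, n = 2 hosts). Of the 42, 9 were called lower in Div8pos against Div0. The V segments, with 291 CpGs, changed by -9.46 ± 0.539 points and the 35 CpGs between Tmem121 and the first constant transcript by -10.2 ± 1.65. The 7 CpGs around Adam6b and Adam6a changed by -5.10 ± 3.45 points, and none was called. At the borders, the 18 CpGs nearest to Tedc1 averaged 81.1 ± 0.673% in Div8pos and 90.1 ± 2.17% in Div0. The 49 nearest to Tmem121 averaged 68.8 ± 1.36% in Div8pos and 77.1 ± 0.135% in Div0. Zfp386, with 10 of its 18 CpGs under 10% in Div0, averaged 38.2 ± 2.01% in Div8pos and 44.4 ± 0.855% in Div0 (SD, n = 2 throughout).

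A pair of CpGs among the constant regions was lower in both fractions with at least 8 divisions. At chr12:114603533 the level was 47.1% and 35.8% in Div8pos, 45% and 61.8% in Div8neg, 69.6% and 78.7% in Div5 and 94.4% and 97.6% in Div0. The libraries of Div8pos and of Div8neg all lay below those of Div0, with differences of -54.6 points (quasi-binomial adjusted p = 5.87e-10) and -42.6 points (adjusted p = 0.000235). The neighbouring CpG at 114603385 was at 70.8% and 44.1% in Div8pos, 44.4% and 78.6% in Div8neg and 100% and 97.5% in Div0. The 5 CpGs at chr12:114531620-114532182 averaged 42.9 ± 2.77% in Div8pos, 39.2 ± 2.19% in Div8neg, 61.5 ± 3.15% in Div5 and 72.2 ± 9.29% in Div0. In the V segments, the CpG at chr12:116341586 was at 14.3% and 25.9% in Div8pos, 71.4% and 84.0% in Div8neg and 77.8% and 85.7% in Div0; it was lower in Div8pos than in Div0 (-61.6 points, quasi-binomial adjusted p = 2.69e-05) and than in Div8neg (-57.6 points, adjusted p = 0.00401). At chr12:117185744, near the far end of the V array, Div8pos had 42.9% and 62.7% and Div0 100% and 95.2% (-44.8 points, quasi-binomial adjusted p = 2.73e-07). Reads per library were between 18 and 85 at 114603533, 9 and 54 at 114603385, 5 and 37 at 116341586, and 14 and 75 at 117185744.

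The lambda locus held 1 CpG called between Div8pos and Div0, at chr16:19174781 in a long unnamed transcript. It was at 37.5% and 51.6% in Div8pos, 76.0% and 69.6% in Div8neg and 80% and 75.0% in Div0 (-33.0 points, quasi-binomial adjusted p = 0.00594), from between 15 and 67 reads a library. It belongs to the lambda cluster with the largest fall, chr16:19174511-19174931, which averaged 72.6 ± 3.32% in Div8pos and 90.9 ± 1.26% in Div0 (SD, n = 2). All 11 lambda clusters had a negative difference, and 1 was at least 10 points lower. The 70 CpGs of the long transcript averaged 90.2% in Div8pos, 90.1% in Div8neg and 94.2% in Div0.

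**Figure D4:**
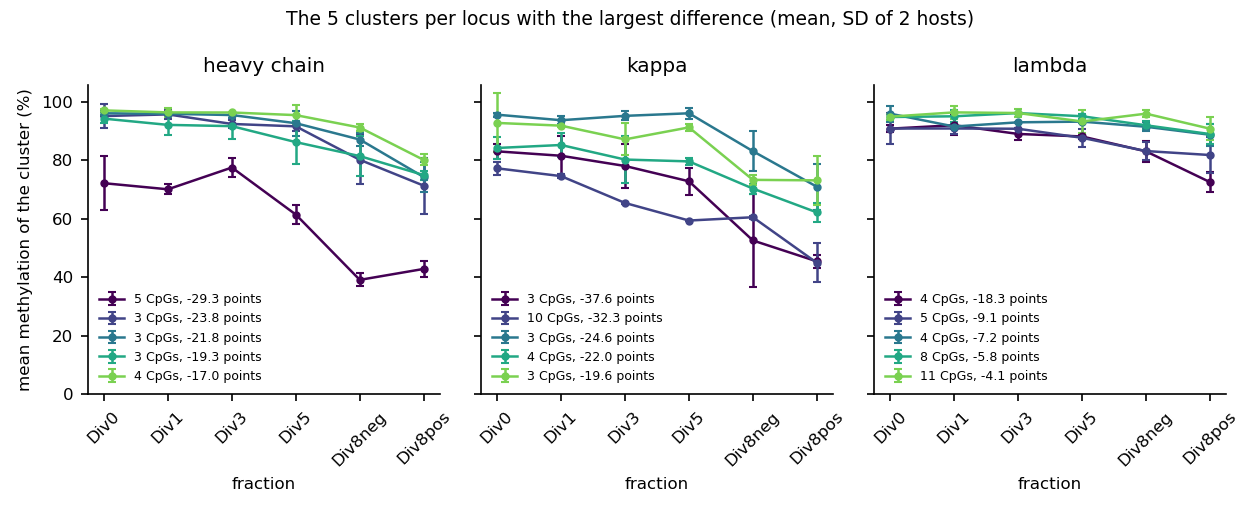
Mean percent methylation (y axis) of the 5 clusters per locus with the largest difference between Div8pos and Div0, by fraction (x axis), with points at the mean of the 2 hosts and bars for the SD. The kappa cluster of 10 CpGs falls by steps to 59.5% in Div5 and 44.98% in Div8pos, while the heavy chain cluster of 5 CpGs is at 42.9% in Div8pos and 39.2% in Div8neg.

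CD138- cells with at least 8 divisions were lower than Div0 at CpGs of all 3 loci. Between Div8neg and Div0, 14 CpGs were lower, against 0.581% of all CpGs tested: 7 in the heavy chain, 6 in kappa and 1 in lambda. None was higher, against 0.0246% of all CpGs tested; 10 were higher at an unadjusted p under 0.05, and limma called 0 higher and 4 lower. At chr12:115131964 in the heavy chain V segments, Div8neg had 42.9% and 32.3%, Div8pos 87.5% and 68.3% and Div0 86.4% and 87.1%. That CpG was lower in Div8neg than in Div0 (-49.2 points, quasi-binomial adjusted p = 0.000383), while its difference between Div8pos and Div8neg, 40.3 points, did not pass (adjusted p = 0.0958). The lambda CpG at chr16:19174931 was at 82.4% and 73.3% in Div8neg and 100% and 100% in Div0 (quasi-binomial adjusted p = 0.0275). These CpGs had between 8 and 59 and between 9 and 73 reads in a library. Leaving out the Div0 library of host 197 gave a count of 2, leaving out the Div8neg library of that host 5, and leaving out the Div0 library of host 196 gave 9.

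Div8pos and Div8neg themselves differed at 4 CpGs, all lower in Div8pos, against 0.438% of all CpGs tested: the heavy chain CpG at 116341586 and the kappa CpGs at 70685360, 70698368 and 70698491, all described above. None was higher, against 0.00485% of all CpGs tested, with 19 higher at an unadjusted p under 0.05 and 2 higher by limma. Without Div8neg of host 197 the count of lower CpGs was 0, and without Div8pos of host 197 it was 2.

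B cell marker promoters were low in Div8pos. At the promoter of Pax5, 6 CpGs averaged 3.1 ± 1.47% in Div8pos, 3.8 ± 1.87% in Div8neg and 1.0 ± 1.47% in Div0 (SD, n = 2), and none was called in these comparisons. At the promoter of Cd22, which encodes an inhibitory coreceptor of B cells, 2 CpGs averaged 3.3 ± 2.26% in Div8pos, 25.1 ± 8.02% in Div8neg and 26.9 ± 0.215% in Div0 (SD, n = 2), and 1 was called lower in Div8pos than in Div0 and 1 lower than in Div8neg. Promoters of markers of other cells a host keeps were mostly methylated: the median of 3 T cell genes was 68.2% in Div8pos, 81.4% in Div8neg and 87.8% in Div0, that of 5 myeloid genes 76.0% in Div8pos, 84.7% in Div8neg and 92.6% in Div0, that of 3 NK cell genes 84.4% in Div8pos, 85.0% in Div8neg and 92.3% in Div0, and that of 3 erythroid genes 47.3% in Div8pos, 50.7% in Div8neg and 67.6% in Div0. The part of other cells in the Div8neg and Div8pos results was not tested.

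Earlier divisions held few calls. Between Div5 and Div0, 3 CpGs were lower, against 0.0913% of all CpGs tested. They were the kappa pair at 69074856 and 69074886 and the heavy chain CpG at chr12:116976469, which had 16.7% and 15.3% in Div5 and 33.3% and 54.9% in Div0 (-28.2 points, quasi-binomial adjusted p = 0.0123). Limma called 0 of these, and so did the quasi-binomial model without Div0 or without Div5 of host 197. Between Div3 and Div0 the quasi-binomial model and limma called 0 CpGs, against 0.0186% of all CpGs tested lower by the quasi-binomial model, and 0.000728% higher, with 46 lower and 35 higher in the loci at an unadjusted p under 0.05. Between Div1 and Div0 both called 0 CpGs, against 0 of all CpGs tested, with 33 lower and 25 higher at an unadjusted p under 0.05.

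Stretches of 10 kb with at least 3 CpGs were tested with limma on their mean methylation, which takes its error from the libraries rather than the reads. Of the 147 such tiles in the loci, 51 were at least 10 points lower in Div8pos than in Div0 at an adjusted p under 0.05, against 38.6% of all tiles: 25 of 56 in the heavy chain, 26 of 80 in kappa and 0 of 11 in lambda. No tile of the loci was higher by limma, also at an unadjusted p under 0.05 (0 tiles), against 0.024% of all tiles. The lambda tiles had a median difference of -4.12 points, against -9.07 in the heavy chain and -7.59 in kappa. Both tiles at the downstream end of kappa led the list. The tile at chr6:70690000-70699999 averaged 2.2% and 11.3% in Div8pos, 55.4% and 55.8% in Div8neg, and 73.0% and 75.6% in Div0, a difference of -67.5 ± 4.66 points between Div8pos and Div0 (SE, limma adjusted p = 6.3e-05). The tile at chr6:70680000-70689999 averaged 21.8% and 21.7% in Div8pos, 45.8% and 51.7% in Div8neg, and 75.8% and 71.5% in Div0 (-51.9 ± 3.08 points, SE, limma adjusted p = 3.53e-05). The next were chr6:69070000-69079999, with the cluster of 10 CpGs (-32.3 ± 2.63), and in the heavy chain V segments chr12:117180000-117189999 (-28.3 ± 2.60) and chr12:116340000-116349999 (-27.4 ± 3.47).

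Between Div8neg and Div0, 0 tiles were higher in the limma test, with 0 at an unadjusted p under 0.05, against 0.0777% of all tiles, and 12 were lower, against 6.17%, among them chr12:114530000-114539999 in the constant region stretch, with 47.8% and 42.2% in Div8neg, 48.0% and 47.8% in Div8pos, and 79.5% and 70.7% in Div0 (Div8neg minus Div0 -30.1 ± 3.23 points, SE, limma adjusted p = 0.00323). Both kappa tiles at the downstream end passed here as well, at -24.9 ± 3.08 points (limma adjusted p = 0.00525) and -18.7 ± 4.66 (adjusted p = 0.0347). In that comparison no single CpG of the stretch passed the quasi-binomial test and 1, at 70681944, passed limma. With the Div0 library of host 196 left out the count was 1, with that of host 197 left out 7, and with the Div8neg library of host 197 left out 20. Between Div8pos and Div8neg, 0 tiles were higher by limma, with 4 at an unadjusted p under 0.05, against 0.0604% of all tiles, and 18 were lower, against 10.8%, led by the same kappa pair, at -48.8 ± 4.66 points (limma adjusted p = 0.00175) for chr6:70690000-70699999 and -27.0 ± 3.08 (adjusted p = 0.00261) for chr6:70680000-70689999. Without Div8neg of host 196 this count was 11.

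The number of reads over the loci was a second readout, taken over all listed CpGs and scaled to 1000000 CpG reads in each library (RPM). Kappa RPM were 515.3 ± 9.96, 466.0 ± 1.27, 433.9 ± 9.06, 435.2 ± 11, 415.5 ± 10.3 and 382.9 ± 32.8 in Div0, Div1, Div3, Div5, Div8neg and Div8pos (SD, n = 2). Every divided library lay below both undivided ones. The slope of log2 RPM was -0.0756 per step (exact permutation within hosts, two-sided, adjusted over the 3 loci, p = 3.5e-05), a test added after the values were seen. The V segments after Rprl1 averaged 135.9 ± 22.1 RPM in Div8pos and 206.7 ± 3.55 in Div0, and those before Rprl1 242.0 ± 11.3 in Div8pos and 304.0 ± 6.63 in Div0. The downstream end had 4.2 ± 0.134, 3.3 ± 0.732, 3.1 ± 0.177, 3.8 ± 0.0954, 3.1 ± 0.466 and 4.1 ± 0.405 in Div0, Div1, Div3, Div5, Div8neg and Div8pos. Its Div8pos level was thus near that of Div0, while Div1, Div3 and Div8neg were lower. The flanks of kappa had 800.5 ± 9.98 in Div8pos and 775.4 ± 1.60 in Div0.

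The heavy chain had fewest reads in Div8neg, 254.9 ± 2.26 RPM, against 310.8 ± 11.7 in Div8pos and 331.3 ± 4.73 in Div0. Its V segments had 166.4 ± 4.29 in Div8neg, 201.0 ± 21.9 in Div8pos and 237.7 ± 0.285 in Div0, and its constant, J and D stretch 19.9 ± 1.57 in Div8neg, 28.6 ± 3.51 in Div8pos and 26.4 ± 0.363 in Div0. The slope over the 6 fractions was -0.0394 (exact permutation adjusted p = 0.085), and -0.0555 (adjusted p = 0.029) without Div8pos of host 197. Lambda had 80.4 ± 4.35 in Div8pos and 68.9 ± 7.27 in Div0, with a slope of 0.0388 (exact permutation adjusted p = 0.049) that missed the threshold without either Div8pos library or without Div0 of host 196. In a limma test of single 10 kb tiles, 0 of 51 tiles in the loci differed between Div8pos and Div0, against 0 of all tiles; at an unadjusted p under 0.05, 15 of the 30 kappa tiles were lower and 0 higher, 1 of 13 heavy chain tiles was lower and 2 higher, and 0 of 8 lambda tiles passed, against 2941 lower and 2355 higher of all 52521 tiles. In the adjusted test with the Div8pos library of host 197 left out, 4 tiles of the loci were lower. How reads that match several near-identical V segments were counted is not given in the sources used here.

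**Figure D5:**
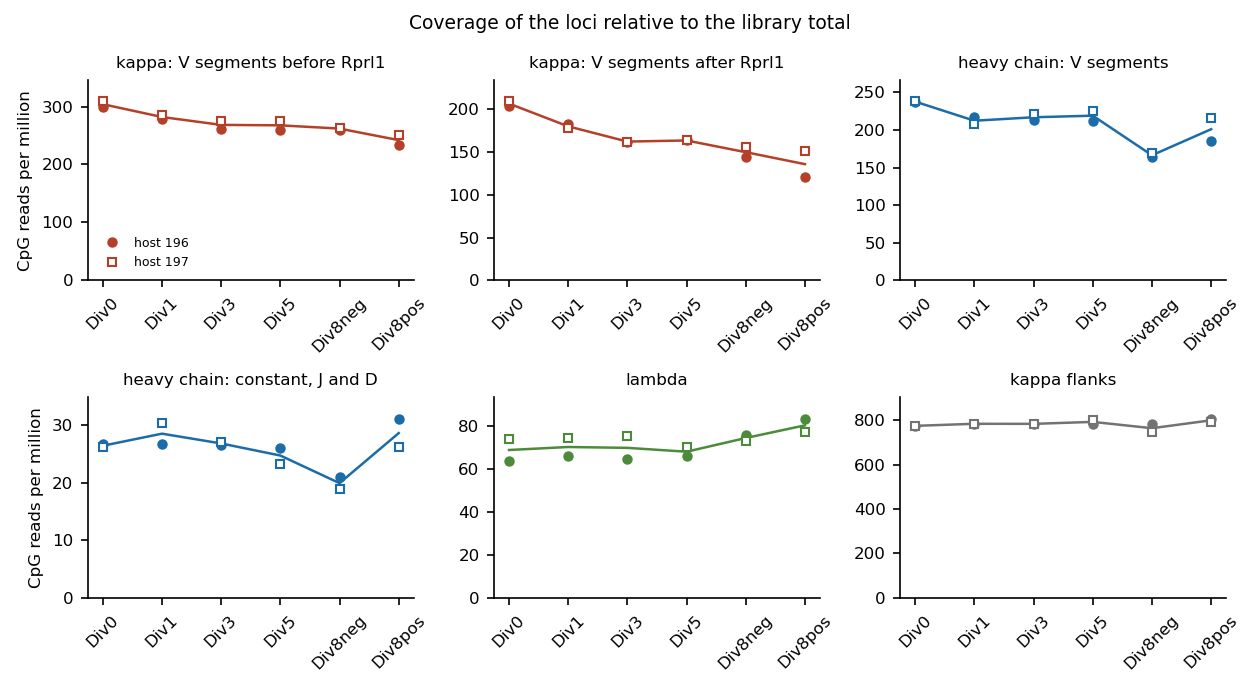
CpG reads scaled to 1000000 of the library (y axis, RPM) by fraction (x axis) over both kappa V stretches, the heavy chain V segments, the heavy chain constant, J and D stretch, lambda and the kappa flanks, with 1 point per library and lines through the means of the 2 hosts. The kappa V segments after Rprl1 average 135.9 in Div8pos and 206.7 in Div0, the heavy chain V segments are lowest in Div8neg at 166.4, and the kappa flanks stay between 764.8 and 800.5.

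Genes whose products act on the immunoglobulin loci were read from a list of 4 groups. The 13 measured recombination genes include end-joining factors and, of the RAG recombinase, Rag1 but not Rag2, which had no measured CpG. Among their CpGs, 20 of 517 (3.87%) were lower in Div8pos than in Div0. Among those of the 15 switching and hypermutation genes 29 of 648 (4.48%) were lower, and both shares were under the 7.16% of all CpGs. The 19 transcription and architectural factors had 180 of 1515 CpGs lower (11.9%), and the 9 measured genes for surrogate light chain, receptor partners and antibody secretion 22 of 208 (10.6%). Single genes weigh heavily, since Pax5 and Ebf1 gave 50 and 42 of the 180, and Prdm1 18 of the 22. The shares also depend on unmethylated promoter CpGs with almost no room to fall. In Div0 the 55 of Hmgb1 averaged 2.0%, the 80 of Ung 1.6% and the 50 of Yy1 2.0%. Differences between the groups were not tested. At the promoter of Irf4, a factor required for plasma cell formation, 18 CpGs averaged 10.9 ± 0.654% in Div8pos, 22.3 ± 2.84% in Div8neg and 29.3 ± 4.07% in Div0, and 7 were called lower in Div8pos than in Div0. At the promoter of Spib, an Ets factor of B cells, the level was 37.6 ± 6.07% in Div8pos and 52.8 ± 5.92% in Div0, with 6 CpGs lower. Over the 5 CpGs given to Pou2af1, the B cell coactivator of octamer factors at immunoglobulin promoters, it was 60.7 ± 7.98% in Div8pos and 94.8 ± 1.13% in Div0, with 4 lower. Pax5 and Ebf1, which establish B cell identity, had 50 of 231 and 42 of 162 CpGs lower, and Prdm1, encoding the plasma cell repressor Blimp-1, 18 of 89, all outside their promoters, which stayed at or under 3.1% in Div8pos. Pax5 also had 1 CpG called higher, against 0.0273% of all CpGs tested, and was the only gene of the 4 groups with a higher CpG. Rag1 and Ung, which start recombination and process deaminated cytosine, had 1 of 21 and 7 of 105 CpGs lower (all SD, n = 2).

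The libraries differed in depth. Summed coverage over listed CpGs was between 25839754 and 79310444 reads, and median coverage of the loci's CpGs was between 12 and 45 reads. Host 197 had the deeper library in every fraction, so a value of host 196 carries more counting error. Both hosts enter each mean with equal weight, while the quasi-binomial test weights them by their reads.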

How the data were processed

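Reduced representation bisulfite libraries were made from 20 ng of genomic DNA cut with MspI and TaqI, bisulfite treated, amplified by PCR without molecular identifiers and sequenced as 50 bp single-end reads, per the labels' protocols. The submitters' processing notes name Bismark, Bowtie2 and the build mm9; versions and the treatment of reads with several matches are not stated in the sources used here. The deposited table gives methylated and unmethylated read counts per CpG and library, per the file headers, and the fraction methylated, equal to the share of methylated reads within 5.6e-16. It lists 1639598 CpGs, of which 1236018 had at least 5 reads in all 12 libraries; 29086 empty library cells were read as 0 reads. Gene symbols and classes are those deposited.

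From these counts a quasi-binomial logistic model over all 12 libraries was fitted at each CpG (R 4.3.3), with the dispersion moderated by limma 3.58.1 (squeezeVar) to a single value of 1.152, and Benjamini-Hochberg adjustment over all CpGs tested. The median dispersion of the loci's own CpGs was 0.9867. This model takes its error from the spread shared by all CpGs; estimated from each CpG alone, no call was made. Means of 10 kb tiles were tested with limma over 104230 tiles. Slopes used exact within-host permutation (518400 arrangements). Coverage intervals are not given. PCR reads are not independent molecules, so p-values and reads cover at most counting error and host spread. The quasi-binomial p-values cover host spread only as a dispersion shared over all CpGs, not as the difference between hosts at a single CpG.

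Named CpGs are, per locus and comparison, the called ones with the largest differences that moved the same way in both hosts (at most 5); named clusters are the 5 largest by CpGs and by difference; of tiles that passed a test, those leading each comparison are named; the 7 CpGs at the downstream end of kappa are given in full. Genes of the fixed list are named where a promoter CpG or at least 3 CpGs were called, and not all of these are named. The B cell marker list is given in part, since 1 of its results is not reported here. Members, lists and comparisons were chosen with earlier results of these data known. Replicates are 2 host animals, and equal host numbers mean the same animal per the labels. Deviations from fraction means, compared between fractions, correlated between -0.002 and 0.0053 over all CpGs and between -0.122 and 0.117 over the loci (15 pairs of fractions). The alternatives were other size limits, minimum reads, dispersions, tile sizes, a host block, summed reads, limma on percent methylation and leaving out each library.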

Additional observations from a re-analysis of the deposited data

How the results depend on the processing

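Of the values recomputed under alternatives, 250 were classed as the same by the rule for their kind. A slope was classed so if it kept its sign and side of the threshold. A count of calls was classed so if it stayed equal or within 1.5 times, also where a count of higher calls was 0 and stayed 0. Another 40 counts moved by more than that, 3 slopes changed sign, 5 slopes lost the threshold and 1 gained it. The limits are 2 hosts per fraction, 5 to 10 reads at many CpGs and a dispersion shared over the table: estimated per CpG, the calls in the loci were 0 in each CpG comparison. Host 197, with the deeper libraries, decided many calls.

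CpGs lower in Div8pos against Div0 (97) were 175 at a limit of 10 points and 43 at 10 reads or more, and between 20 and 103 with 1 library left out (20 without Div0 of host 197, 43 without Div8pos of host 197); limma called 1 higher. For Div8neg against Div0 (14), limma called 4, and leaving out a library gave 2 to 13. For Div8pos against Div8neg (4), limma called 12 lower and 2 higher, 10 reads or more left 1, and leaving out a library gave 0 to 4 lower and 0 to 1 higher. For Div5 against Div0 (3), limma called 0 and leaving out a library gave 0 to 4.

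Tiles lower in Div8pos against Div0 (51) were 89 at a limit of 5 points, 13 at 10 reads or more and 18 with at least 5 CpGs. Tiles lower in Div8neg against Div0 (12) were 24, 2 and 5 under the same settings, and 1 to 20 with a library left out. Tiles lower in Div8pos against Div8neg (18) were 30, 3 and 5, with 10 lower and 1 higher in tiles of 50 kb, and 11 to 21 lower and 0 to 3 higher with a library left out. In the coverage test of tiles, 0 to 4 passed with a library left out (4 without Div8pos of host 197).

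With the host as a block, that is with the pairing of libraries by animal, CpG calls were 92 for Div8pos against Div0 and 12 for Div8neg against Div0, where chr12:114531767 (adjusted p = 0.0556) and chr6:69149942 (adjusted p = 0.065) were lost; no other count of calls moved by over 1.5 times.

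Slopes of locus minus flanks, with exact permutation adjusted p, were -0.438 for the heavy chain (p = 0.16) and -0.506 for kappa (p = 0.28) over summed reads, and at CpGs at 80% or more in Div1 0.0463 (p = 0.5), 0.415 (p = 0.00034) and 0.804 (p = 0.013) for heavy chain, kappa and lambda. In the loci's flanks 45.3%, 46.2% and 39.2% of CpGs stood at 80% or more in Div0, against 87.5%, 89.2% and 93.8% in the loci. With a library left out, the coverage slope was between -0.0555 and -0.0372 for the heavy chain and between 0.0208 and 0.0494 for lambda. The causes were not tested.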

Other observations

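Of the T cell receptor loci, which B cells do not rearrange, only those of the beta and gamma chains were read in the same way. Between the genes that bound the beta and gamma chain loci (Mgam and Ephb6, Amph and Stard3nl), 176 CpGs averaged 83.0%, 82.3%, 81.9%, 81.3%, 77.4% and 73.2% in Div0, Div1, Div3, Div5, Div8neg and Div8pos. Div8pos minus Div0 was -9.79 ± 0.431 points (SD, n = 2 hosts), and 22 of the 176 CpGs were lower (12.5%), against 8.42% in the immunoglobulin loci. Among CpGs at 80% or more in Div1 the change was -10.58 ± 0.0938 points at 136 CpGs of the T cell receptor loci and -8.48 ± 0.156 at 1019 CpGs of the immunoglobulin loci. The difference between these loci was not tested. Reads over the T cell receptor loci were 116.2 ± 9.43 RPM in Div8pos and 128.5 ± 6.32 in Div0.

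Between the deposited libraries of a fraction, coverage per CpG (methylated plus unmethylated reads) differed by more than sampling noise in all 6 fractions. The chi-square per degree of freedom was between 1.244 and 3.626, and each library was kept as its own sample. This chi-square does not measure the spread of percent methylation.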
